A study of Mus musculus with 4 samples.

Results

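The genes described here encode the semaphorins, a family of guidance cues, and their receptors, the plexins and neuropilins. They were taken from the table of all genes by symbol: Sema with a digit and a letter, Plxn with a letter from a to d and a digit, and Nrp1 and Nrp2. This rule found 31 of the 24771 listed features, made up of 20 semaphorins, 9 plexins and 2 neuropilins. Their RNA was measured by sequencing in 2 samples of PSC-derived SG placodes and 2 samples of E12.5 SMGs, the embryonic mouse submandibular gland at the stage of the initial bud. The placodes were collected on day 10 of the differentiation of a single line of mouse embryonic stem cells, which had been seeded at 3000 cells per well and kept in 2% Matrigel from day 1. The factors given were BMP4 (2 ng/ml, day 3), bFGF (25 ng/ml) together with RA (1 μM) on day 4, and FGF10 (200 ng/ml) from day 6. The SMGs come from embryos whose strain and number are not stated, and how much mesenchyme was kept at dissection is not stated either. Whether the 2 samples of a group are separate cultures or separate litters is also not stated. The p-values set the group difference against the spread between samples of a group, which may be technical.

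Semaphorins share a sema domain, through which they bind plexins on the receiving cell. Those of class 3 are secreted and most of them reach plexins A by way of a neuropilin, which binds the ligand but has little signaling ability of its own. Classes 4, 5 and 6 span the membrane and bind plexins directly, while Sema7a is held by a lipid anchor. The intracellular part of a plexin acts on small GTPases, and the usual outcome is collapse or turning of the cell edge. The system is best known from axon guidance and the patterning of blood vessels, and in the embryonic SMG class 3 semaphorins and neuropilins have been tied to cleft formation in the epithelium.

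The values are FPKM, fragment numbers scaled to transcript length and library size, so levels of different genes can be compared within a sample. The read depth is unknown, and no counting interval or detection floor can be given. For the comparison of the groups, log2(FPKM + 1) was tested with limma over the 13193 features with a mean FPKM of at least 1, and a gene was called at a Benjamini-Hochberg adjusted p below 0.05. A log2 fold change (log2FC, with its standard error, SE) is the placode mean minus the SMG mean on this scale and understates the change of genes with low values. An exact permutation test of 2 against 2 samples cannot go below p = 0.333. The samples are tissues and aggregates of mixed cells, so a lower share of a cell type and less RNA per cell cannot be told apart in any of the values below.

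The labelled tissues were checked against marker lists. All 10 markers of the salivary epithelium had an FPKM of 1 or more in both SMG samples, against 5 in the pair of placode samples, and Krt5, Krt14 and Krt15 were listed at 0 in both placode samples. The paper, by contrast, reports staining for Krt5, Krt19, E-cadherin and Sox9 on day 10. It also reports a rise of Krt5 and Krt14 by qPCR with FGF10. Krt19 is not among the 10 markers used here. The summed FPKM of 10 neuronal markers was 1493 and 1505 in the placodes and 130 and 118 in the SMGs. The sum of 10 endothelial markers was 12.9 and 12.1 against 170 and 177, and that of 10 mesenchyme markers 218 and 215 against 2175 and 2127. For 10 leukocyte markers it was 2.61 and 3.23 against 32.4 and 29.3, with Cx3cr1, Adgre1 and Tyrobp listed at 0 in both placode samples. For 8 markers of Schwann and neural crest cells it was 40.6 and 39.1 against 93.4 and 85.2, with Cdh19 listed at 0 in both placode samples. Of the 6 tested genes of this list 5 were called lower, while Foxd3, at 4.40 and 3.56 against 2.99 and 3.15, was not called. Ngfr, at 27.4 and 28.3 against 37.8 and 33.9, made up most of the placode sum. In the placodes 7 of the 10 epithelial markers were called lower, and all 10 neuronal markers were called higher. Among all tested features 40.4% were called lower and 35.7% higher. The epithelial marker called higher was Sox9, at 42.1 and 43.0 against 9.31 and 7.66 (log2FC 2.20, limma adjusted p = 3.66e-06), and Krt8 (adjusted p = 0.322) and Krt18 (adjusted p = 0.0541) were not called. Those called lower included Pitx1, at 0.539 and 0.429 against 245 and 253, and Epcam, at 1.75 and 2.69 against 87.2 and 78.8. Cdh1 (1.11 and 1.18 against 28.2 and 24.7) and Trp63 (0.0287 and 0.0262 against 13.6 and 13.2) were also among them. Thus 7 of the 10 epithelial markers go against the label of a salivary gland placode. Sox9, Krt8 and Krt18 were not called lower, which by itself does not establish a salivary identity. The samples are called placodes here by their label. These marker lists differ between the groups along with the genes below, and their part in the differences was not tested.

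The family as a whole was present in both groups, but the order of its leading genes differed. In the placodes 27 of the 31 genes had an FPKM of at least 1 in both samples, and in the SMGs 29 did. Of the 31 genes, 29 reached the mean FPKM needed for the test, while Sema3e and Plxnb3 did not. Of these 29, 27 were called (93.1%), against 76.2% of all tested features. In the placodes 13 were higher and 14 lower, and of all tested features 35.7% were higher and 40.4% lower. At least 2-fold changes past the threshold were found for 16 of the 29 genes, against 29.4% of all tested features. Of these 16, 7 were higher (14.1% of all features) and 9 were lower (15.2% of all features). The median absolute log2 fold change was 1.04 for the 29 genes and 0.55 for all tested features. The groups did not overlap for any of the 29 genes, and the same held for 88.4% of all features. The 7 genes that were at least 2-fold higher were Sema5b, Plxna2, Sema6b, Plxna1, Sema6d, Sema6c and Sema7a. The 9 that were at least 2-fold lower were Plxnd1, Plxnc1, Sema3b, Sema5a, Sema3f, Sema3d, Sema3g, Nrp2 and Plxnb2.

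**Figure D1:**
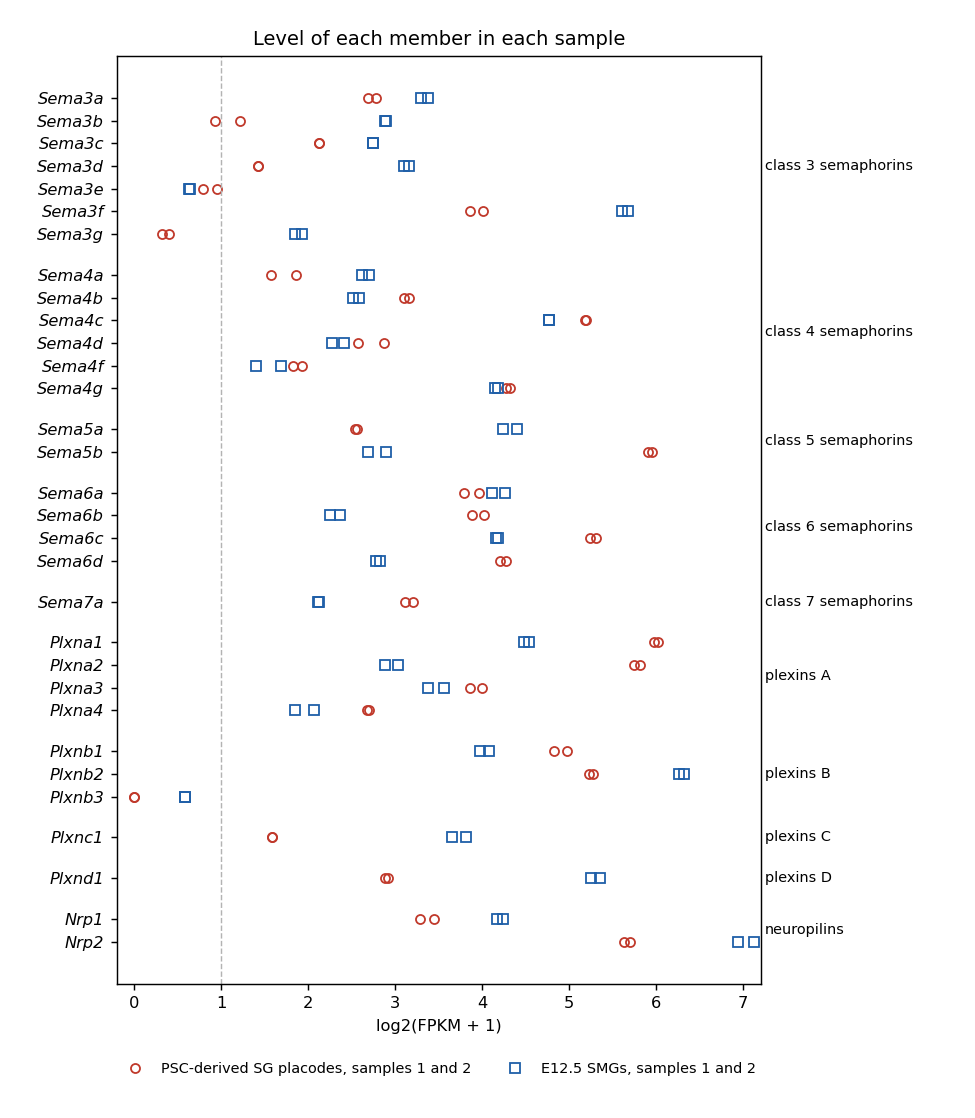
Level of each of the 31 genes in each of the 4 samples as log2(FPKM + 1) on the horizontal axis, with 1 circle per placode sample, 1 square per SMG sample and a dashed line at an FPKM of 1. The 2 samples of a group lie close together, and the circles lie to the left of the squares for 6 of the 7 class 3 semaphorins and both neuropilins and to the right for all 4 plexins A.

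To place these differences on the genome, the upstream sequence of 5 genes is shown: the top 2 and the bottom 3 by log2 fold change among the 8 called genes with at least 200 upstream bases that lie outside annotated exons. RefSeq (GRCm38.p6) holds start sites for 26 of the 31 genes. The Sema6b stretch is chr17:56140344-56140593 (minus strand) and that of Sema6d chr2:124089719-124089942 (plus strand), both of genes that were higher in the placodes. Those of the genes that were lower are chr5:12382916-12383160 for Sema3d, chr14:31217623-31217859 for Sema3g and chr1:62703067-62703284 for Nrp2, all on the plus strand. Capitals mark the GC box GGGCGG and the CCAAT box CCAAT, found on either strand.
Sema6b: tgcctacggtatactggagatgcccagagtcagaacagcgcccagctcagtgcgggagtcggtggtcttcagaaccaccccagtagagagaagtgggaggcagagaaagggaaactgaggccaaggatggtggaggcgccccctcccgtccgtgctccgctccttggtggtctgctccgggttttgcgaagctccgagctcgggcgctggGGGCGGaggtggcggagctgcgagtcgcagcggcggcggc
Sema6d: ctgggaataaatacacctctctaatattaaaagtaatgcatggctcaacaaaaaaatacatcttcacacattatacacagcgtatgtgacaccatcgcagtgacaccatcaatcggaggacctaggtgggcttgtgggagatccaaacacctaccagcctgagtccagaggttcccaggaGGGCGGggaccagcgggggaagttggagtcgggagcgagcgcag
Sema3d: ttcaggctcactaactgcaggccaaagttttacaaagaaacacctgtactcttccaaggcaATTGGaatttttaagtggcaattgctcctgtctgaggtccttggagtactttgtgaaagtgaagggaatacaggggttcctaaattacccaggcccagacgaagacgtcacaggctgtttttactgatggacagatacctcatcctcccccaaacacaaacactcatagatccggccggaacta
Sema3g: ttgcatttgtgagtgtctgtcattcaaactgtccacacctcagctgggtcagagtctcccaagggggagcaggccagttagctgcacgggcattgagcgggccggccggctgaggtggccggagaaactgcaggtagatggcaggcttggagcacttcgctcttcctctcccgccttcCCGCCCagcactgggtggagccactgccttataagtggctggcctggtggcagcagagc
Nrp2: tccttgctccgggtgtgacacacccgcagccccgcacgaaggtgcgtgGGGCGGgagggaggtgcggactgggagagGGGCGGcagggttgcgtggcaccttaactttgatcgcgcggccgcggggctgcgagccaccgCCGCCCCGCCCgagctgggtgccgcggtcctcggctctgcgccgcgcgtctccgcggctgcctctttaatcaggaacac
A GC box was found in the stretches of Sema6b and Sema6d, each from 1 of 2 start sites of its gene, and in that of Sema3g. In that of Nrp2 there were 4, of which 2 overlap by a base. Sema3d had none and held 1 CCAAT box. In the full windows of 300 bases, from 250 before to 50 after the start, the 26 genes had 37 windows, since some have several starts. A GC box was present in 27 of the 37 windows, from 21 genes, and in 35.7% of all 32851 windows. TATAAA was present in none of the 37, against 13.6% of all windows, and CCAAT in 7 of them, from 6 genes, against 37.4%. The half-site AGGTCA of nuclear receptors, the class of the RA receptors, was found in 7 of the 37 windows, from 7 genes (16.3% of all windows). Of these, Nrp1, Plxnb2, Plxnd1 and Sema5a were lower and Sema4b, Sema4d and Sema6b higher. CACGTG, an E-box, was found in 3 of the 37 windows, from Sema3e, Sema4b and Sema6d (7.15% of all windows). Other motifs were not searched, and a match of letters does not show that a factor binds.

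The secreted semaphorins of class 3 were lower in the placodes. Of the 7 genes, 6 were tested and all 6 were called lower, 4 of them at least 2-fold. Among all tested features 40.4% were called lower and 15.2% at least 2-fold lower. The median log2 fold change was -1.62 for the class, against -0.05 for all tested features. The summed FPKM of the class was 26.5 and 27.8 in the placodes and 82.3 and 80.2 in the SMGs. As a share of all semaphorin FPKM, the class fell from 38.7% and 37.6% in the SMGs to 10.6% in both placode samples.

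Sema3f, the preferred ligand of Nrp2, was the most abundant member of the class in both groups. Its FPKM was 13.5 and 15.1 in the placodes and 50.3 and 47.7 in the SMGs. The groups lay far apart, with a log2FC of -1.71 (SE 0.07, limma adjusted p = 3.25e-06). In the SMGs Sema3f was the third most abundant gene of the whole family, after Nrp2 and Plxnb2. Sema3b, which lies 72.3 kb from Sema3f on chromosome 9, was at 1.31 and 0.898 against 6.37 and 6.42, a log2FC of -1.82 (SE 0.13, adjusted p = 3.18e-05). Sema3g, a semaphorin of vascular cells, had the greatest ratio of mean FPKM in the class, being 9.59-fold higher in the SMGs. Its FPKM was 0.316 and 0.248 in the placodes and 2.60 and 2.81 in the SMGs. Because these values are low, its log2 fold change depended on the added constant and was -1.53 (adjusted p = 4.19e-05) as tested, -2.88 with 0.1 added and -3.23 with 0.01.

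The other 4 genes of the class are neighbours on chromosome 5, where Sema3d, Sema3a and Sema3e are separated by gaps of 0.536 and 0.423 Mb and Sema3c follows after 3.32 Mb. Sema3d was at 1.67 and 1.69 in the placodes and at 7.90 and 7.59 in the SMGs, a log2FC of -1.71 (SE 0.09, adjusted p = 1.09e-05). Sema3a, the classic repellent of axons that acts through Nrp1, differed less, with 5.43 and 5.87 against 8.83 and 9.36 (log2FC -0.60, adjusted p = 0.000796). Sema3c, which has a role in the outflow tract of the heart, was also below 2-fold, with 3.37 and 3.35 against 5.73 and 5.70 (log2FC -0.62, adjusted p = 0.000843). Sema3e is the exception among class 3 ligands, since it binds Plxnd1 without a neuropilin. It was too low for the test, with an FPKM of 0.925 and 0.722 in the placodes and 0.549 and 0.555 in the SMGs, and was the only member of the class whose placode values lay above its SMG values. In the fit without a minimum of mean FPKM it was not called (adjusted p = 0.107). Neighbours on the chromosome thus differed by different amounts, from the 4.61-fold ratio of mean FPKM of Sema3d to the 1.61-fold ratio of Sema3a, both higher in the SMGs. Within the class, Sema3f kept the leading share, at 50.9% and 54.1% of the class FPKM in the placodes and 61.2% and 59.5% in the SMGs, while the share of Sema3a was 20.5% and 21.1% against 10.7% and 11.7%.

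Both neuropilins, the ligand-binding receptors for this class, were lower too. Nrp2 was the most abundant of the 31 genes in the SMGs and the fourth in the placodes. Its FPKM was 48.6 and 51.1 in the placodes, with a mean of 49.9 ± 1.77 (SD, n = 2), and 122 and 139 in the SMGs, with a mean of 131 ± 11.7 (SD, n = 2). The log2 fold change was -1.37 (SE 0.07, limma adjusted p = 9.48e-06). Nrp1, which also serves as a co-receptor of VEGF, had an FPKM of 8.72 and 9.92 in the placodes and 17.0 and 17.9 in the SMGs (log2FC -0.84, SE 0.08, adjusted p = 0.000142). Neither gene's groups overlapped, and the same held for 88.4% of all tested features. The ratio of Nrp2 to Nrp1 was 5.58 and 5.15 in the placodes and 7.17 and 7.75 in the SMGs, so Nrp2 was the main neuropilin RNA in both. Nrp2 lies on chromosome 1 of GRCm38 from 62703285 to 62818695 and Nrp1 on chromosome 8 from 128358604 to 128503363. Endothelial and mesenchymal markers, whose sums are given above, were lower in the placodes along with both genes, and their part was not tested.

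The plexins as a group were not scarcer in the placodes: the summed FPKM of the 9 genes was 206 and 216 there and 185 and 187 in the SMGs. Their makeup differed. Plexins A, the signaling partners of neuropilins and direct receptors of class 6 semaphorins, made up 64.8% and 64.6% of all plexin FPKM in the placodes, against 23.6% and 21.2% in the SMGs. All 4 were called higher in the placodes, as were 35.7% of all tested features. The neuronal marker sum, 1493 and 1505 against 130 and 118, was higher along with them and with Sema5b and the 3 raised genes of class 6, and its part in these differences was not tested.

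Plxna1 was the most abundant gene of the family in the placodes, at an FPKM of 61.7 and 64.0, against 22.3 and 21.3 in the SMGs (log2FC 1.48, SE 0.05, limma adjusted p = 1.93e-06). An antisense gene shares 10.7% of its exonic bases in GENCODE M21, and since it is not stated whether the counting used the strand, a part of these reads could be from that gene. Plxna2, a receptor of Sema6a, rose further, from 7.19 and 6.38 in the SMGs to 52.7 and 55.1 in the placodes, a 7.95-fold ratio of mean FPKM and a log2FC of 2.82 (SE 0.07, adjusted p = 6.09e-07). Within the subfamily it moved from 16.5% and 16.1% of the FPKM in the SMGs to 39.5% in both placode samples. The ratio of Plxna2 to Plxna1 was 0.854 and 0.862 in the placodes and 0.322 and 0.299 in the SMGs, so Plxna1 led in every sample, by less in the placodes. Plxna3 and Plxna4, which act with neuropilins in axon guidance, differed by less than 2-fold. Plxna3 was at 13.5 and 15.0 against 10.8 and 9.41 (log2FC 0.46, adjusted p = 0.00420), and without placode sample 2 its log2 fold change was 0.39 and it was not called (adjusted p = 0.0660). Plxna4 was at 5.48 and 5.41 against 3.20 and 2.59 (log2FC 0.73, adjusted p = 0.00121).

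The other plexins went mostly the opposite way. Plxnd1, the receptor of Sema3e, is known for its role in endothelial cells and had the lowest log2FC of the family with 1 added to FPKM. By the ratio of mean FPKM, Sema3g (9.59) and Plxnc1 (6.17) fell further than Plxnd1 (5.95), and both were also lower than it with 0.1 or 0.01 added. The FPKM of Plxnd1 was 6.56 and 6.34 in the placodes and 37.0 and 39.8 in the SMGs (log2FC -2.40, SE 0.07, limma adjusted p = 7.67e-07). With Sema3e below an FPKM of 1 in all 4 samples, the receptor was present at a level well above its ligand in both groups. Plxnc1, the receptor of Sema7a, fell from 11.6 and 13.0 in the SMGs to 2.01 and 1.99 in the placodes (log2FC -2.15, SE 0.10, adjusted p = 4.84e-06). Of all plexin FPKM, Plxnd1 held 20.0% and 21.3% in the SMGs and 3.18% and 2.94% in the placodes. All 10 endothelial markers were called at least 2-fold lower in the placodes along with Plxnd1, as were 15.2% of all tested features. Their summed FPKM was 12.9 and 12.1 against 170 and 177 for the markers, and the part of endothelial cells in the fall of Plxnd1 was not tested.

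Within plexins B, Plxnb1 and Plxnb2, both receptors of class 4 semaphorins, moved apart. Plxnb1, a receptor of Sema4d, was at 27.4 and 30.5 in the placodes and 16.0 and 14.7 in the SMGs (log2FC 0.87, SE 0.07, adjusted p = 8.26e-05). Plxnb2, a receptor of Sema4c, was at 36.5 and 37.8 against 76.0 and 79.1 (log2FC -1.04, SE 0.05, adjusted p = 6.49e-06). The ratio of Plxnb2 to Plxnb1 was 1.33 and 1.24 in the placodes and 4.77 and 5.38 in the SMGs. Plxnb2 stood close to the 2-fold line and was at -0.98 when FPKM was rescaled to an equal sum per sample and also by median ratios. Plxnb3 had values of 0.495 and 0.501 in the SMGs, was listed at 0 in each of the placode samples, and was too low to be tested. In the fit without a minimum of mean FPKM it was called lower (adjusted p = 0.00151).

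**Figure D2:**
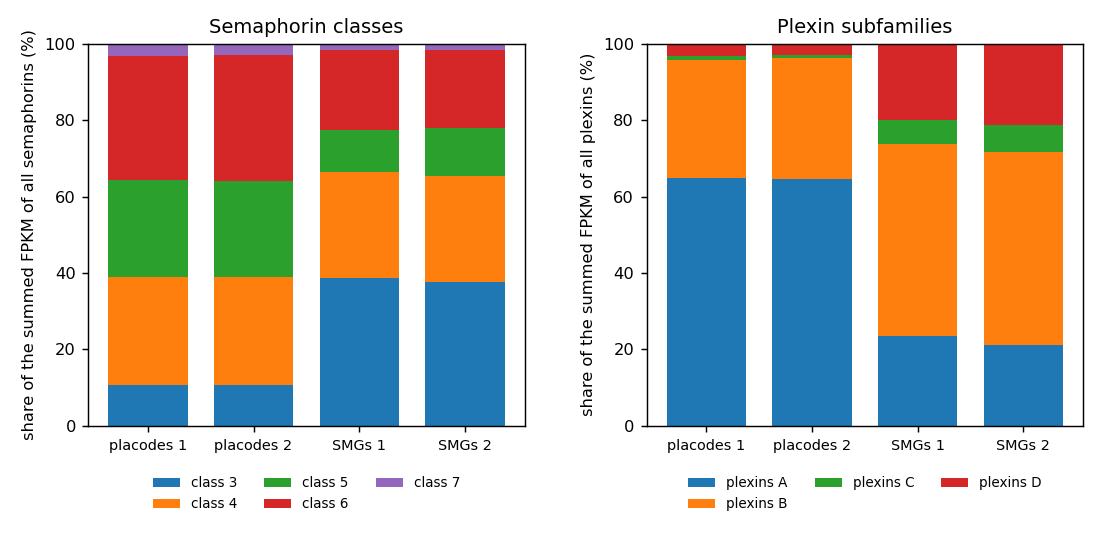
Share of each semaphorin class (left) and each plexin subfamily (right) in the summed FPKM of all semaphorins or all plexins, in percent, with 1 bar per sample. Class 3 takes 10.6% in both placode samples and 38.7% and 37.6% in the SMGs, and plexins A take 64.8% and 64.6% against 23.6% and 21.2%.

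Among the membrane-bound semaphorins the genes went both ways. The summed FPKM of class 6 was 80.7 and 86.6 in the placodes and 44.6 and 43.7 in the SMGs. In this class 3 of the 4 genes were called at least 2-fold higher, against 14.1% of all tested features. Sema6b was at 13.8 and 15.2 in the placodes and 3.76 and 4.15 in the SMGs (log2FC 1.64, SE 0.09, limma adjusted p = 1.16e-05). Sema6d, a ligand of Plxna1, was at 17.4 and 18.3 against 5.86 and 6.09 (log2FC 1.44, SE 0.07, adjusted p = 7.74e-06). Ligand and receptor of this pair were both raised, with ratios of mean FPKM of 2.99 for Sema6d and 2.88 for Plxna1. Sema6c was the most abundant of the class in the placodes, at 36.8 and 38.5 against 16.8 and 17.1 (log2FC 1.10, SE 0.05, adjusted p = 7.31e-06). Sema6a, a ligand of Plxna2 and Plxna4, was the exception. Its FPKM was 12.8 and 14.6 in the placodes and 18.1 and 16.3 in the SMGs, a log2FC of -0.31 (adjusted p = 0.0181). This small difference was not called without placode sample 1 (-0.22, adjusted p = 0.135) or without SMG sample 1 (-0.24, adjusted p = 0.132). Plxna2 thus rose, while the small difference of Sema6a, 1 of its ligands, went the other way.

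The 2 semaphorins of class 5, which carry thrombospondin repeats next to the sema domain, changed places. Sema5b had the highest log2 fold change of the family. Its FPKM was 58.8 and 60.9 in the placodes and 5.45 and 6.46 in the SMGs, a 10.1-fold ratio of mean FPKM and a log2FC of 3.13 (SE 0.08, limma adjusted p = 6.62e-07). It was the second most abundant of the 31 genes in the placodes and the twentieth in the SMGs, where its values overlapped those of Plxna2, Sema3b, Sema6d, Sema3c and Sema4a. Sema5a was at 4.82 and 4.89 in the placodes and at 17.95 and 20.1 in the SMGs (log2FC -1.77, SE 0.08, adjusted p = 5.85e-06). The ratio of Sema5b to Sema5a was 12.22 and 12.46 in the placodes and 0.304 and 0.321 in the SMGs. This ratio does not depend on how the libraries are scaled. Sema5b lies on chromosome 16 from 35541145 to 35664732 and Sema5a on chromosome 15 from 32244810 to 32696341, and neither shares exonic bases with another gene. Plxna1 and Plxna3 are known receptors of both ligands.

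Class 4 was the class that differed least. Its summed FPKM was 70.7 and 74.1 in the placodes and 59.3 and 59.5 in the SMGs, or 27.8% to 28.3% of all semaphorin FPKM in the 4 samples. None of its 6 genes was called with a change of 2-fold or more, against 29.4% of all tested features. Sema4c was the most abundant of the class, at 35.4 and 35.5 in the placodes and 26.2 in both SMG samples (log2FC 0.42, limma adjusted p = 0.000332), and 7.27% of its exonic bases are shared with a gene on the other strand. Sema4b was at 7.55 and 7.94 against 4.72 and 5.01 (log2FC 0.58, adjusted p = 0.00103). Sema4a, which acts on immune cells and binds plexins B and Plxnd1, was the only member called lower, at 1.96 and 2.63 against 5.16 and 5.49 (log2FC -0.95, adjusted p = 0.000661). Its log2 fold change was past -1 with a smaller added constant (-1.19 with 0.1, -1.23 with 0.01) and without placode sample 2 (-1.09).

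Sema4d, known as CD100 on leukocytes, was only just called. It was at 4.94 and 6.31 in the placodes and 4.33 and 3.82 in the SMGs (log2FC 0.38, limma adjusted p = 0.0348). The call was lost without placode sample 2 (0.23, adjusted p = 0.186), without SMG sample 1 (0.45, adjusted p = 0.0954) and without SMG sample 2 (0.31, adjusted p = 0.197), and also in the fit without a minimum of mean FPKM (adjusted p = 0.0743). Sema4f and Sema4g were not called. Sema4g, at 18.3 and 19.0 against 17.2 and 16.7, had a log2FC of 0.13 (95% confidence interval -0.01 to 0.27, adjusted p = 0.0833). For Sema4f, at 2.55 and 2.80 against 1.63 and 2.22, it was 0.34 (95% confidence interval 0.01 to 0.66, adjusted p = 0.0586), or 0.19 without SMG sample 1 and 0.48 without SMG sample 2, when it was called (adjusted p = 0.0261). Both intervals are on the log2(FPKM + 1) scale, and with 0.01 added in place of 1 the Sema4f value was 0.49 (SE 0.21). Sema7a, the sole member of class 7, was at 8.18 and 7.65 in the placodes and 3.32 and 3.36 in the SMGs (log2FC 1.04, SE 0.09, adjusted p = 7.84e-05), and was just below 2-fold without placode sample 1 (0.995). Of its known receptors, Plxnc1 fell, as given above, and Itgb1, the integrin β1 subunit, was at 52.9 and 52.4 against 165 and 160.2 (log2FC -1.61, adjusted p = 8.52e-07).

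**Figure D3:**
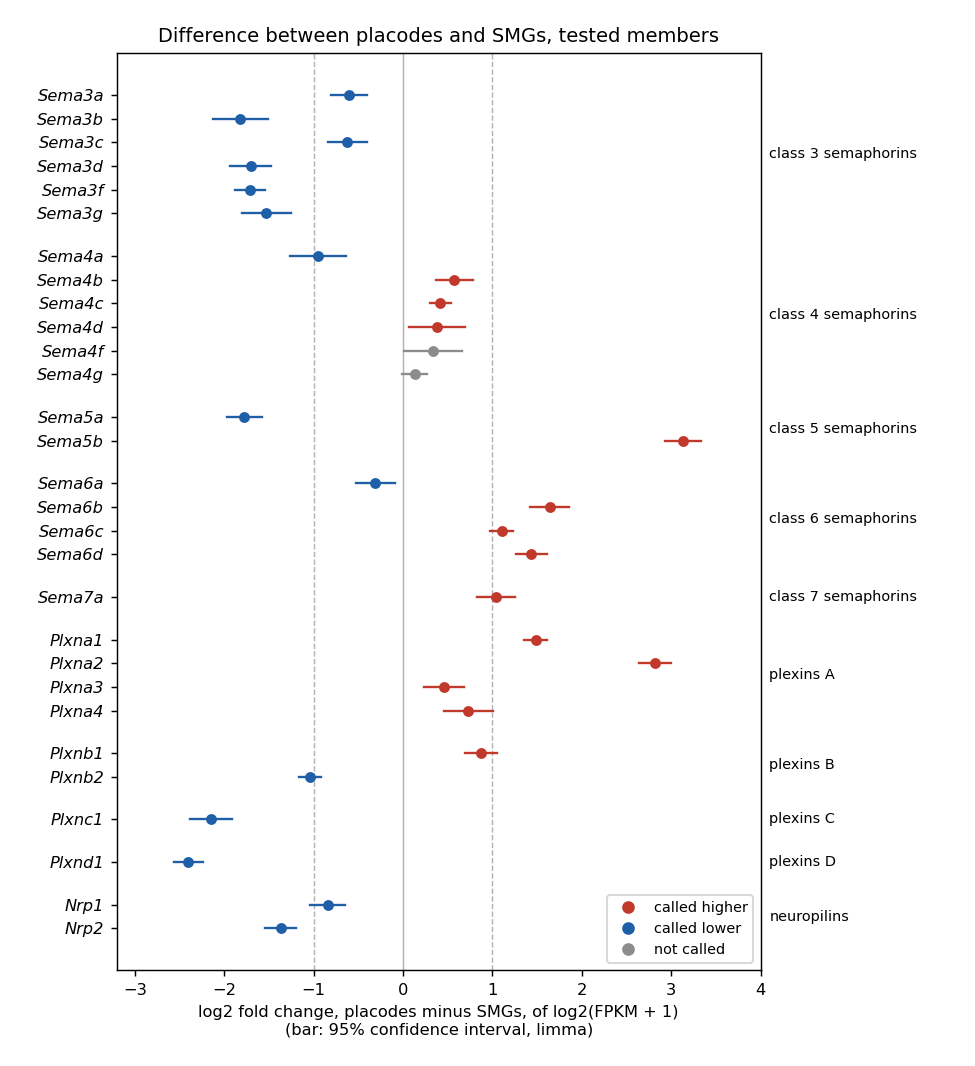
Log2 fold change (placodes minus SMGs, on log2(FPKM + 1)) of the 29 tested genes as points, with 95% confidence intervals from limma as bars and dashed lines at 2-fold. Sema5b (3.13) and Plxna2 (2.82) lie farthest to the right, Plxnd1 (-2.40) and Plxnc1 (-2.15) farthest to the left, and the 2 grey points that were not called are Sema4f and Sema4g.

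The order of the levels differed between the groups as well. In the placodes the 4 most abundant genes were Plxna1, Sema5b, Plxna2 and Nrp2, whose values did not overlap between neighbours in this order. They were followed by Sema6c and Plxnb2, which did overlap. In the SMGs the leading genes were Nrp2, Plxnb2, Sema3f, Plxnd1 and Sema4c, again without overlap between neighbours. Further down the SMG order, the values of Nrp1, Sema6a, Sema6c and Sema4g, all between 16.3 and 18.1, could not be ordered. The lowest 4 genes of the placodes were Sema3b, Sema3e, Sema3g and Plxnb3. With 2 samples per group this order is a description.

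The other genes of the pathway were taken from a list of 50 measured partners, 49 of which were tested. Of these, 41 were called (83.7%, against 76.2% of all tested features), 21 higher and 20 lower. At least 2-fold changes were found for 15 higher and 10 lower, against 14.1% and 15.2% of all tested features. Among the co-receptors and other receptors, 11 were tested and 11 called, 3 of them higher and 8 lower, against 35.7% and 40.4% of all tested features. The 3 were the L1-type adhesion molecules, of which L1cam forms a complex with Nrp1 for Sema3a and Nrcam one with Nrp2. Chl1 was at 35.6 and 38.3 in the placodes and 0.458 and 0.566 in the SMGs (log2FC 4.65, limma adjusted p = 2.60e-07). Nrcam was at 26.9 and 29.4 against 0.248 and 0.252 (4.54, adjusted p = 3.26e-07) and L1cam at 34.0 and 31.8 against 2.64 and 2.70 (3.21, adjusted p = 4.39e-07). These adhesion molecules are typical of neurons, and the neuronal marker sum was higher in the placodes along with them, with all 10 of its genes called higher. Its part in these differences was not tested. Ptk7 and Mst1r, receptor-type kinases that have been found with plexins, were lower, with Ptk7 at -1.27 (adjusted p = 2.46e-06) and Mst1r at -1.34 (adjusted p = 0.000108) on the log2 scale.

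Neuropilins also bind VEGF, and the VEGF system was split between ligand and receptors. Vegfa was at 88.5 and 91.0 in the placodes and 24.6 and 23.1 in the SMGs (log2FC 1.87, SE 0.05, limma adjusted p = 8.44e-07). Kdr, its main signaling receptor, was at 0.643 and 0.672 against 20.0 and 20.8 (log2FC -3.69, SE 0.09, adjusted p = 4.82e-07). The ratio of Vegfa to Kdr was 138 and 135 in the placodes and 1.23 and 1.11 in the SMGs. The other VEGF receptors were lower as well, Flt4 with a log2FC of -1.89 (adjusted p = 1.79e-05) and Flt1 with -0.95 (adjusted p = 0.000238). Of the other ligands, Vegfd (1.14, adjusted p = 0.000512) and Vegfb (0.55, adjusted p = 0.000429) were higher and Vegfc was lower (-0.77, adjusted p = 0.000402), while Pgf was not called (0.19, adjusted p = 0.244, 95% confidence interval -0.14 to 0.53). Kdr, Flt1 and Flt4 are endothelial genes, and the endothelial marker sum differed in the same direction; its part was not tested.

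Inside the cell, 32 partners were tested, of which 15 were called higher and 10 lower, with 10 and 4 at least 2-fold apart. The called share was 78.1%, against 76.2% of all tested features, of which 35.7% were higher and 40.4% lower, or 14.1% and 15.2% at 2-fold or more. The 5 collapsin response mediator proteins, which carry the signal of Sema3a to microtubules, were all at least 2-fold higher. Crmp1 was at 304 and 307 in the placodes and 18.5 and 17.5 in the SMGs (log2FC 4.01, limma adjusted p = 1.09e-07). Dpysl5 (4.21), Dpysl4 (3.31), Dpysl3 (2.01) and Dpysl2 (1.35) followed the same direction. These proteins, too, are abundant in neurons. The neuronal marker sum, given above, was higher in the placodes along with their genes, and its part was not tested. The kinase genes Gsk3b (1.43), Pak1 (1.82) and Limk1 (1.17) and Cdk5r1 (2.94), the activator of the kinase Cdk5, were also higher, as was Rnd1 (1.15), a GTPase that binds plexins. The genes that were at least 2-fold lower were Farp1 (-2.17) of the FARP exchange factors of plexins A, Sh3bp1 (-2.13), a Rac GTPase-activating protein bound to plexins, Rhod (-2.05), a GTPase that binds plexins, and Fes (-1.78), a kinase that acts with plexins A. Furin, the protease that cuts class 3 semaphorins, was at 9.46 and 7.86 against 30.4 and 30.6 (log2FC -1.71, adjusted p = 9.72e-06), lower together with its substrates.

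**Figure D4:**
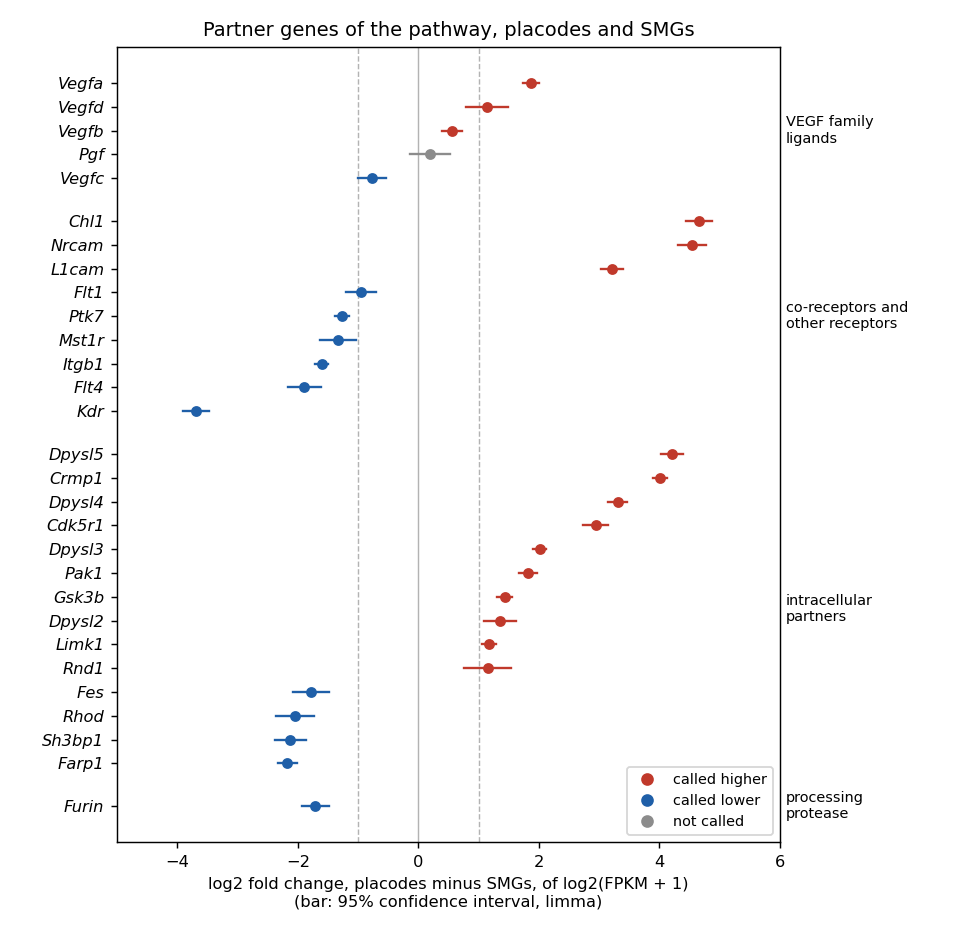
Log2 fold change (placodes minus SMGs, on log2(FPKM + 1)) of the 29 named partner genes as points, with 95% confidence intervals from limma as bars and dashed lines at 2-fold. Chl1, Nrcam, Dpysl5 and Crmp1 lie farthest to the right, above 4 on the log2 scale, and Kdr lies farthest to the left, at -3.69.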

How the data were processed

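RNA was sequenced in 2 samples of PSC-derived SG placodes and 2 of E12.5 SMGs, grouped by their labels. No batch is named, so a batch and the group cannot be told apart. HISAT2 was used by the authors to map the paired-end reads, with mouse as the reference, and they deposited 1 FPKM value per gene and sample. GRCm38 and GRCh38 are both named in the submitters' processing notes without a role. The version of HISAT2, the annotation, the strandedness and the program that gave FPKM are not given in the sources used here. The values are not counts, so the depth is unknown. They summed to between 361963 and 384773 per sample.

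All 31 genes were matched by Ensembl identifier to GENCODE M21 (GRCm38), which gave coordinates and shared exons. Promoter sequences are from RefSeq (GRCm38.p6).

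Features with a mean FPKM of at least 1 were tested as log2(FPKM + 1) by limma (version 3.58.1, R 4.3.3) in a model of the group alone, with moderated variances and a mean trend. P-values were two-sided and adjusted by Benjamini-Hochberg over 13193 features, and 2-fold means a log2FC of 1. Shares are percent of the summed FPKM of a class. The script was tested on simulated data, and figures were drawn with Python 3.11.15.

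The genes, the lists of partners and markers and the alternatives were chosen with earlier results of these data known. All genes of the family were named. Partners were named when called with a change of at least 2-fold or when they belong to the VEGF system. Marker genes were named when listed at 0 in a group or where a statement rests on them. Sox9, Krt8, Krt18, Pitx1, Epcam, Cdh1, Trp63, Foxd3 and Ngfr were named after their values were seen.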

Additional observations from a re-analysis of the deposited data

How the results depend on the processing

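The number of genes of the family that were called was 27 as reported and 20 to 29 under the alternatives (pseudocounts of 0.1 and 0.01, rescaling to an equal sum, median-ratio scaling, quantile normalization, a minimum mean FPKM of 5 or none, other eBayes settings, and no assembled loci). The lowest count was found with a minimum mean FPKM of 5, when 21 genes were tested. Leaving out each sample in turn gave 25 to 27 calls, 6 to 7 genes at least 2-fold higher and 9 to 10 at least 2-fold lower. The count at least 2-fold higher was 7 under all the other alternatives, and that at least 2-fold lower was 6 to 10. Partners called numbered 32 to 41. Neither the 29 tested genes nor the named partners changed direction under any of these alternatives. Of the single tests on the 29 genes, 412 kept their call, 7 lost it (Sema4d, Sema6a and Plxna3) and 8 gained it (Sema4f and Sema4g, the latter only under rescaling to an equal sum and median ratios). These scalings moved the median log2 fold change of all features from -0.05 to 0.01.

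The correlation of same-numbered deviations from the group means was -0.03 across the tested features. It rests on a single difference per group for each gene, so it cannot show whether same-numbered samples share a preparation. With the replicate number as a block in place of no pairing, 28 genes were called, the gain being Sema4f (adjusted p = 0.0479). The numbers of genes detected were 30 and 31 at an FPKM of at least 0.1 and 20 and 22 at an FPKM of at least 5, in the placodes and the SMGs. Without read counts, the precision of low values such as those of Sema3e, Sema3g and Plxnb3 cannot be stated.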
